A study of Mus musculus with 30 samples.

Results

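Domains of histone H3 trimethylated at lysine 27 (H3K27me3) were compared between cells that lost estradiol (E2) for 72 h and were then given it back, and cells that stayed without it. The cells were the ER-Hoxa9-Lys-GFP line, of C57BL/6 origin and cultured in vitro. HOXA9 is a homeobox protein that keeps blood progenitors immature. In these cells it is joined to the part of the estrogen receptor that binds hormone, so its activity depends on E2. In the first condition E2 was withdrawn for 72 h and restored for 48 h (called 72 h restored below). In the second it was withdrawn for 120 h with no restoration. Both cultures therefore ended 120 h after E2 was first removed, and both carry the fusion protein and grew in medium with stem cell factor. No source used here says whether the line is 1 clone. The members were all domains of these 2 libraries, 2 of the 30 samples of the series: 5166 domains at 72 h restored and 6927 at 120 h, which is 12093 of the 25417 domains in all 5 H3K27me3 lists. The other 3 lists came from cells kept in E2 and from cells deprived for 24 or 40 h before E2 was restored for 96 or 80 h. The lists are thus separate samples, not successive times of 1 culture, and no order of events can be read from them.

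H3K27me3 is placed by Polycomb repressive complex 2, whose catalytic subunit is EZH2 or EZH1, and is removed by the demethylases KDM6A and KDM6B. The complex also binds the mark it makes, so that a domain can spread along chromatin and be carried through cell division. The mark typically covers silent developmental genes, whereas acetylation of the same lysine (H3K27ac) is found at active promoters and enhancers. One lysine cannot carry both at once.

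With 1 library per condition, the differences carry no replicate check and no p-value. The lists hold the position of each domain and no height or score, so the measurements are presence and length. Intervals are exact binomial (Clopper-Pearson) 95% intervals for shares and order-statistic 95% intervals for medians. They cover counting error only, and neighbouring domains are not independent. No source used here gives the read depth. The 2 lists differed in total length: 8.06 Mb was covered at 72 h restored and 12.9 Mb at 120 h, with median domain widths of 903 and 1022 bp. Covered length was 5.47 Mb in E2, 9.10 Mb at 24 h and 6.08 Mb at 40 h, so it did not follow the length of withdrawal. The part of list length in the differences below was not tested. Positions are those of the deposited lists, which fit the mouse build mm9. No gene is named, because no annotation of that build was used.

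By length, the H3K27me3 list of 72 h restored lay almost entirely inside that of 120 h, and the 120 h list covered much more in addition. Of the length covered at 72 h restored, 93.4% was also covered at 120 h, whereas 58.3% of the length at 120 h was covered at 72 h restored. Such nesting was not particular to the 72 h restored list. Of the length covered in E2, at 24 h and at 40 h, 92.2%, 81.5% and 94.6% was also covered at 120 h. At 72 h restored, 523 of 5166 domains had no overlap of even 1 bp at 120 h (10.1%, 9.31 to 11.0). At 120 h, 2956 of 6927 domains had none at 72 h restored (42.7%, 41.5 to 43.8). With the 5166 widest domains of each list the counts were 882 (17.1%) and 1592 (30.8%), and with a tolerance of 5 kb they were 241 and 1778. The domains of only 1 list held 0.195 Mb at 72 h restored and 1.95 Mb at 120 h. Most of the additional length at 120 h did not lie in domains of their own. Of the 5.38 Mb found at 120 h alone, 3.43 Mb (63.8%) belonged to 120 h domains that overlapped a domain of the 72 h restored list.

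Domains of only 1 list were short. Their median width was 301 bp for those only at 72 h restored (quartiles 192 and 510 bp) and 489 bp for those only at 120 h (268 and 839 bp). Shared domains had a median of 1069 bp as called at 72 h restored and 2015 bp as called at 120 h. Of the domains only at 72 h restored, 5 of 523 were 1000 bp or wider, against 558 of 2956 of those only at 120 h. The share found in 1 list dropped with width in both. It was 31.3% at 72 h restored and 80.1% at 120 h for domains under 250 bp, 11.4% and 61.3% for domains of 500 to 1000 bp, and 0.112% and 7.84% for domains of 2000 to 4000 bp. At 120 h, 6 of 888 domains of 4000 bp or more had no counterpart at 72 h restored.

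**Figure D1:**
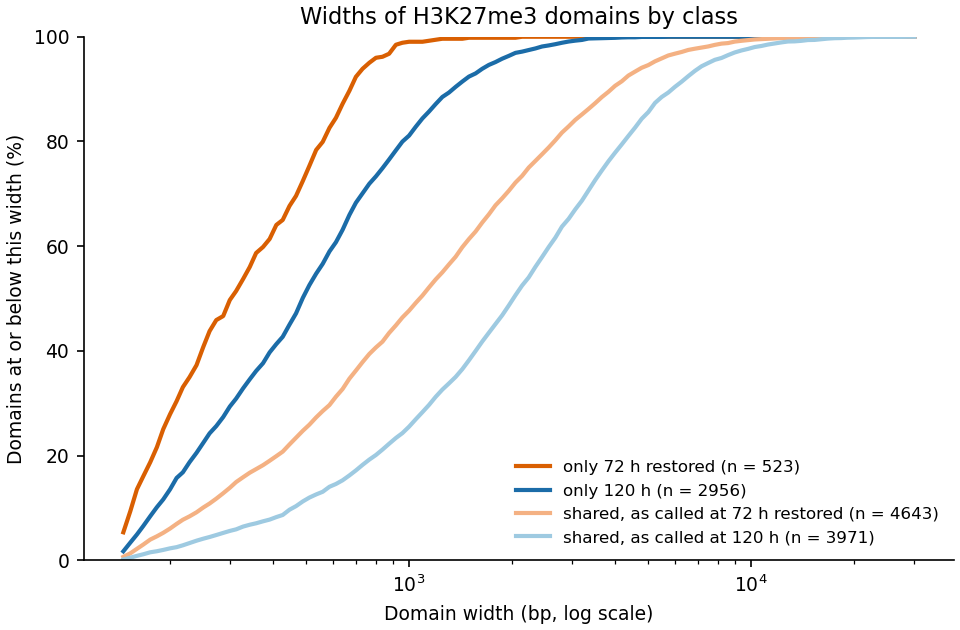
Cumulative share of domains (vertical axis, %) against domain width (horizontal axis, bp, log scale) for domains of 1 list and for shared domains as each list calls them. The curve of domains only at 72 h restored lies farthest left (median 301 bp), followed by those only at 120 h (489 bp), shared domains at 72 h restored (1069 bp) and shared domains at 120 h (2015 bp).

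Many of the one-list domains were close to a domain of the other list. Of those only at 72 h restored, 282 of 523 (53.9%) lay less than 5 kb from a 120 h domain, and 107 (20.5%) lay 100 kb or more away. Of those only at 120 h, 1178 of 2956 (39.9%) lay less than 5 kb from a 72 h restored domain and 704 (23.8%) lay 100 kb or more away. The median gap was 3329 bp for domains only at 72 h restored and 10493 bp for those only at 120 h. Near the limit that separates shared from one-list domains, the smallest overlap of a shared domain was 7 bp at 72 h restored and 8 bp at 120 h, and 27 domains of each list shared 50 bp or less. Just outside it, the smallest gap was 1 bp in both directions. A gap of 300 bp or less was found for 45 domains only at 72 h restored and 44 only at 120 h.

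Shared domains were shorter at 72 h restored. Overlapping domains of both lists were joined into 3893 shared places, and the covered length was summed per place. The median place covered 1345 bp at 72 h restored and 2075 bp at 120 h. The median log2 ratio, 72 h restored over 120 h, was -0.44 (-0.46 to -0.42), which is 0.736 of the length at 120 h. The other lists were also shorter than the 120 h list in the places each shared with it. Their medians were -0.83 for E2, -0.23 for 24 h and -0.65 for 40 h. Coverage was lower at 72 h restored in 3269 places (84.0%) and higher in 619 (15.9%). It was lower by 2-fold or more in 920 places (23.6%) and higher by 2-fold or more in 88 (2.26%). The median ratio was below 0 on each of the 20 chromosomes, from -0.60 to -0.29.

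The direction was shared by short and long places, but the size was not. With places ordered by mean covered length and put in 4 groups of equal size, from the shortest to the longest, the median log2 ratio was -0.39, -0.68, -0.49 and -0.33. The share of places 2-fold or more lower at 72 h restored was 29.2% in the shortest group, 35.3% and 23.0% in the next groups and 6.99% in the longest. In the longest group the quartiles of the ratio were -0.58 and -0.15.

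At 120 h, some neighbouring domains of the 72 h restored list were joined. In 588 of the 3893 places, 2 or more domains at 72 h restored faced a single domain at 120 h. In 55 places a single domain at 72 h restored faced 2 or more at 120 h. Up to 6 domains at 72 h restored lay in 1 place. The median log2 ratio was -0.64 in the first kind and 0.13 in the second. A single domain that spans several others also covers the gaps between them. The signs of these medians therefore follow largely from how the 2 kinds were defined. Of the 3229 places with 1 domain in each list, the 120 h domain reached past the 72 h restored domain at both ends in 1952 (60.5%), and the 72 h restored domain reached past the 120 h domain at both ends in 196 (6.07%). Each reached past the other at 1 end in 1062 (32.9%). Where the 120 h domain was wider at both ends, it reached past by a median of 108 bp at the nearer end and 574 bp at the farther end.

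The presence of a place in the other 3 lists, which the choice of members did not use, went with the size of the difference. In 2317 places H3K27me3 was also listed in E2, at 24 h and at 40 h. There the median log2 ratio of 72 h restored over 120 h was -0.37 (-0.39 to -0.34), and 14.6% of places were 2-fold or more lower. In 512 places none of these 3 lists had a domain. There the median was -0.81 (-0.89 to -0.67), and 42.0% were 2-fold or more lower. These places were also shorter, with a median of 544 bp at 72 h restored and 1032 bp at 120 h, against 2212 and 3070 bp in the places held by all 5 lists. Compared within the same 4 length groups, the medians were -0.47 for places absent from the other 3 lists and -0.32 for places held by all 5 lists in the shortest group. They were -1.03 and -0.43 in the next, -1.22 and -0.43 in the one after it, and -1.13 and -0.31 in the longest, where 15 places were absent from the other 3 lists. In the shortest group the intervals of the 2 kinds overlapped.

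**Figure D2:**
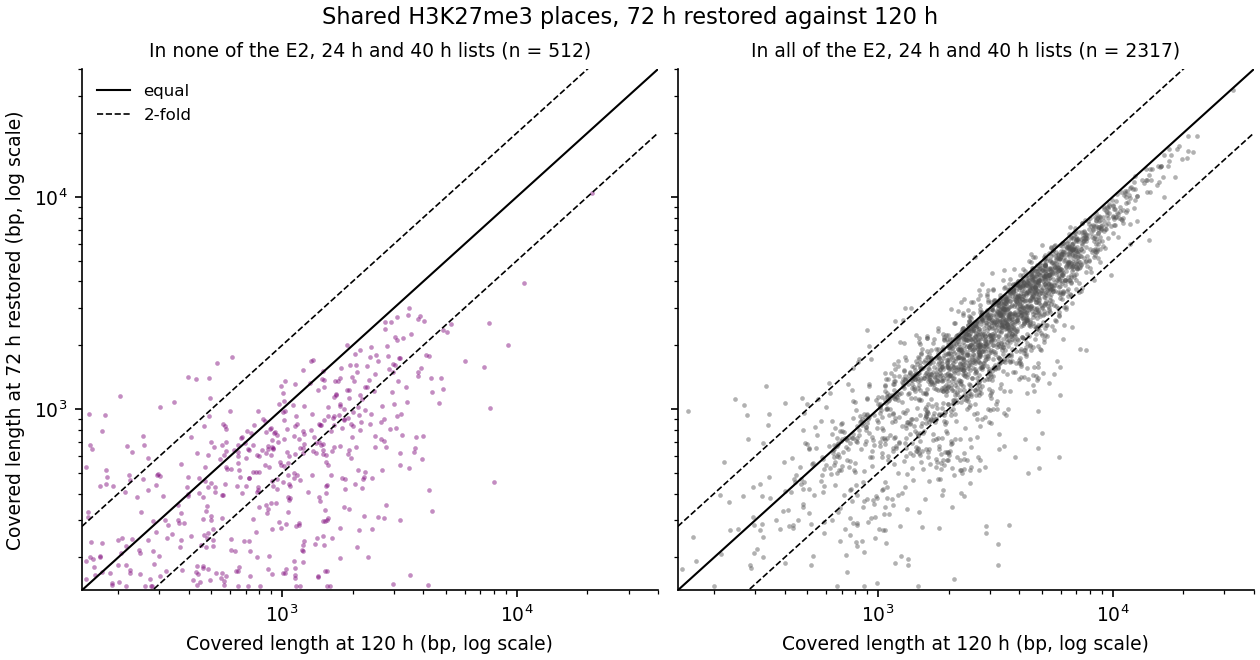
Covered length per shared place at 72 h restored (vertical axis, bp, log scale) against 120 h (horizontal axis, bp, log scale), for the 512 places in none of the E2, 24 h and 40 h lists (left) and the 2317 places in all 3 (right). The solid line marks equal length and the dashed lines a 2-fold difference; 42.0% of the left and 14.6% of the right places lie on or below the lower dashed line.

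In the 2317 places held by all 5 lists, the median covered length was 1489 bp in E2, 2228 bp at 24 h, 1774 bp at 40 h, 2212 bp at 72 h restored and 3070 bp at 120 h. The bounds of these places were set by the 72 h restored and 120 h lists. Length that the other 3 lists held beyond those bounds was not counted, so these medians do not rank the 5 lists. In the places that the 24 h and 72 h restored lists shared with each other, the median log2 ratio, 24 h over 72 h restored, was 0.13.

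The 6 places with the largest deficit of covered length at 72 h restored included 5 without H3K27me3 in E2, at 24 h or at 40 h. Over all shared places, 512 of 3893 were without it. The first lay on chromosome 7, from 151633690 to 151654612. It held 5 domains with 10464 bp at 72 h restored and a single domain of 20923 bp at 120 h, with 0 bp in the other 3 lists. No H3K27ac peak was listed there in any of the 6 H3K27ac lists. On chromosome 17, from 35604154 to 35612183, 456 bp were covered at 72 h restored and 8030 bp at 120 h (log2 ratio -4.14). On chromosome 5, from 92663160 to 92673882, 3914 bp in 3 domains were covered at 72 h restored and 10723 bp in 1 domain at 120 h (log2 ratio -1.45). These places were thus partly covered in the 72 h restored list and continuous in the 120 h list.

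A further place of this kind carried H3K27ac in other conditions. It lay on chromosome 18, from 38755850 to 38765044, with 2002 bp of H3K27me3 at 72 h restored and 9195 bp at 120 h (log2 ratio -2.20), and 0 bp in E2, at 24 h and at 40 h. The same 9195 bp held 3 H3K27ac peaks in E2, 5 at 24 h and 4 at 40 h, with 2633, 3828 and 2904 bp, and none at 56 h, 72 h restored or 120 h. In the same stretch lay the widest domain found only at 120 h (38789285 to 38794983, 5699 bp), where E2 cells had 2 H3K27ac peaks. Over the whole stretch of 39.1 kb, H3K27me3 covered 2002 bp at 72 h restored and 16589 bp at 120 h.

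On chromosome 8, from 114222698 to 114245425, H3K27me3 covered 1017 bp in 1 domain at 72 h restored and 18807 bp in 4 domains at 120 h, and 0 bp in the other 3 lists. The stretch of 22.7 kb includes the domains ranked 3 and 4 by width among those only at 120 h (4724 and 4267 bp) and held no H3K27ac peak in any list. The remaining place of the 6 lay on chromosome 7, from 135499053 to 135513391. It was covered over 7877 bp in E2, 9927 bp at 24 h, 6914 bp at 40 h, 6276 bp at 72 h restored and 14339 bp at 120 h, so it was held by all 5 lists. Its bounds were those of the 120 h domain, so no other list could cover more of it.

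**Figure D3:**
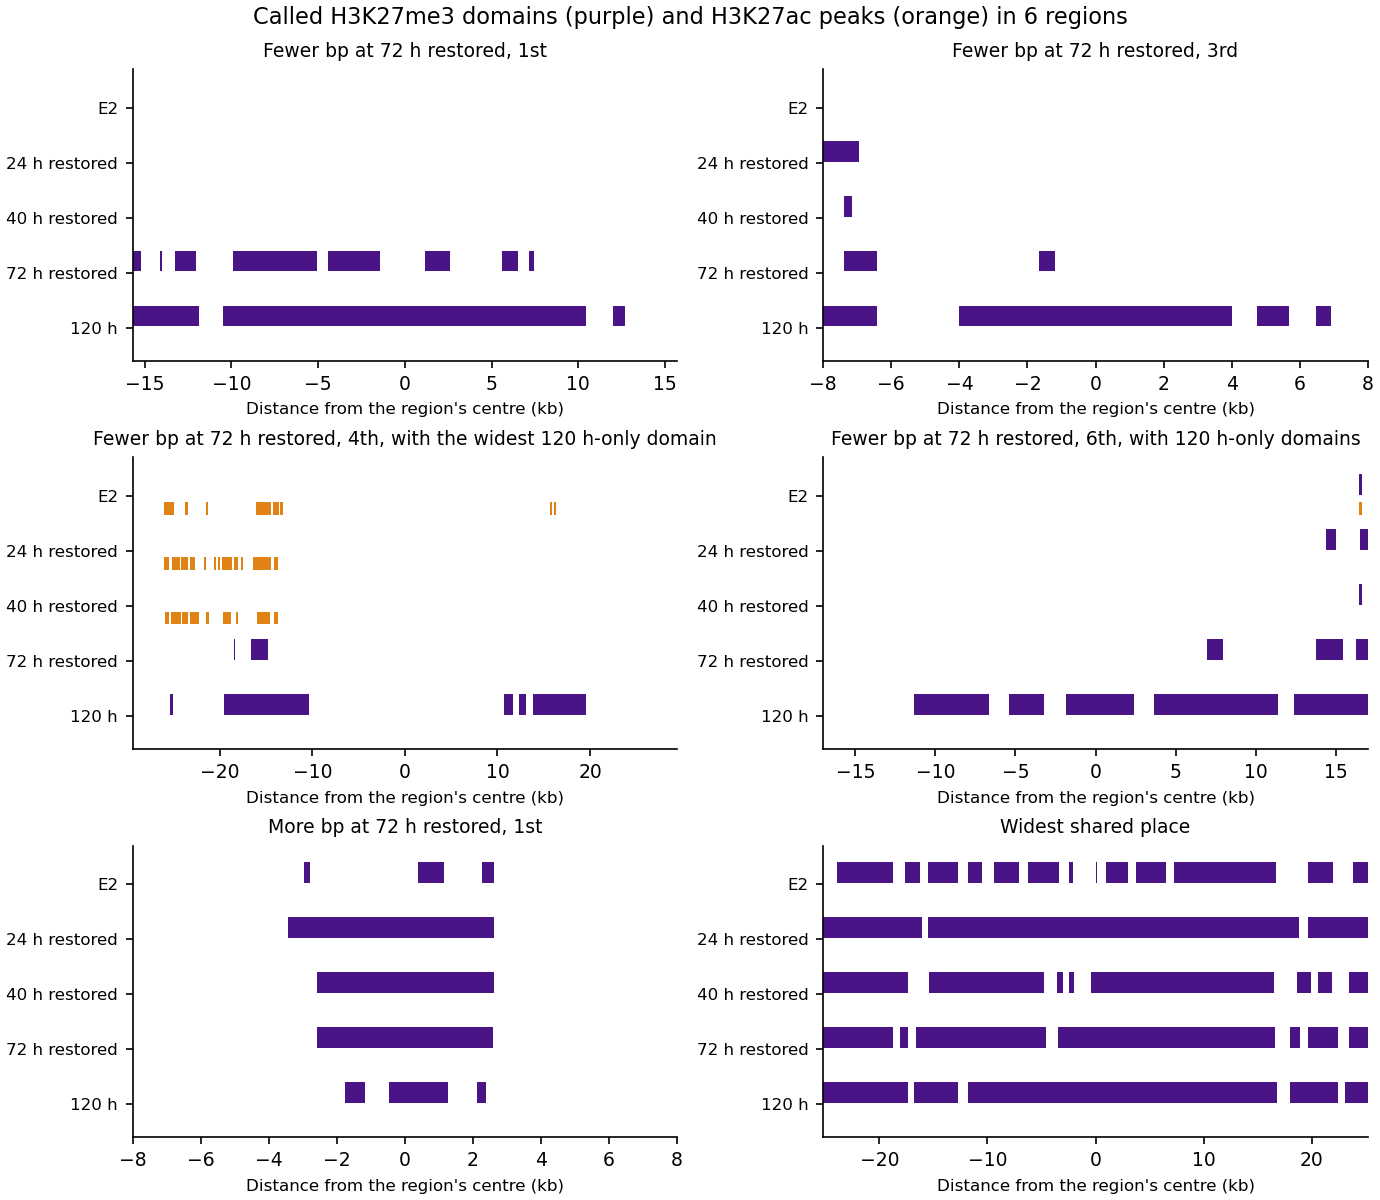
Called H3K27me3 domains (purple) and H3K27ac peaks (orange) in 6 regions, one row per condition, against distance from the region's centre (horizontal axis, kb). The first region has 5 separate domains at 72 h restored inside 1 domain of 20923 bp at 120 h; in the third, H3K27ac peaks are seen in E2, at 24 h and at 40 h and H3K27me3 at 72 h restored and 120 h; in the fifth, the 72 h restored domain (5188 bp) exceeds the 3 domains at 120 h (2581 bp).

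Few places had a clearly longer covered length at 72 h restored. The largest surplus lay on chromosome 3, from 123379643 to 123384830, where a single domain of 5188 bp at 72 h restored faced 3 domains with 2581 bp at 120 h (log2 ratio 1.01). The same 5188 bp were covered in full at 24 h and at 40 h, and over 1066 bp in E2. The next lay on chromosome 17, from 48088970 to 48091952, with 2983 bp at 72 h restored and 1299 bp at 120 h, and with 2050 bp in E2, 819 bp at 24 h and 1324 bp at 40 h. On chromosome 19, from 57276436 to 57279441, 3002 bp at 72 h restored compared with 1380 bp at 120 h. All 6 of the largest surpluses, of 1349 to 2607 bp, lay at places that the E2, 24 h and 40 h lists also held. Of all 3893 shared places, 2317 were held by these 3 lists. None of the 6 carried an H3K27ac peak, which few domains did: even E2 peaks overlapped 3.39% of all 72 h restored and 5.36% of all 120 h domains.

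Of the 6 widest shared places, all were shorter at 72 h restored, by amounts that varied widely. The widest lay on chromosome 15, from 102784865 to 102818457, and was covered over 31997 bp at 72 h restored and 32704 bp at 120 h (log2 ratio -0.03), with 24742 bp in E2, 32992 bp at 24 h and 28646 bp at 40 h. A second lay on chromosome 6, from 83642551 to 83666056, with 19473 bp at 72 h restored and 22889 bp at 120 h. The place on chromosome 7 described above, with 10464 bp at 72 h restored and 20923 bp at 120 h, was also the sixth widest. The other 5 had log2 ratios from -0.45 to -0.03.

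The widest domain found only at 72 h restored lay on chromosome 8, from 124184224 to 124186309 (2086 bp). E2 cells had 874 bp there, 24 h cells 686 bp and 40 h cells 1568 bp, and the nearest 120 h domain was 872 bp away. On chromosome 4, from 120260450 to 120261550, all 1101 bp were covered in E2, at 24 h, at 40 h and at 72 h restored, and the nearest 120 h domain was 140044 bp away. On chromosome 11, a domain of 1205 bp (96029593 to 96030797) was covered over 1077 bp in E2 and 853 bp at 24 h. The domain on chromosome 6 from 87293446 to 87294629 (1184 bp) was listed at 72 h restored and in none of the other 4 lists. Among the 12 widest, 9 overlapped a domain of the E2, 24 h or 40 h list, against 238 of all 523 (45.5%).

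Of the 12 widest domains found only at 120 h, 3 overlapped a domain of the E2, 24 h or 40 h list. That is near the share over all domains only at 120 h, 776 of 2956 (26.3%). On chromosome 10, a domain of 4726 bp (119910823 to 119915548) had 0 bp in the other 4 lists and lay 199651 bp from the nearest 72 h restored domain. Its bases held 3 H3K27ac peaks in E2, 5 at 24 h and 4 at 40 h, covering 2737, 3375 and 2299 bp, and none at 56 h, 72 h restored or 120 h. On chromosome 17, neighbouring domains of 3327 and 3727 bp (12951627 to 12954953 and 12956488 to 12960214) had 0 bp in the other 4 lists. On chromosome 7, a domain of 4030 bp (107157454 to 107161483) had 1491 bp in E2, 1080 bp at 24 h and 0 bp at 40 h and 72 h restored. On chromosome 2, a domain of 3586 bp (130894098 to 130897683) had 232 bp in E2, 3216 bp at 24 h and 0 bp at 40 h and 72 h restored.

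Over all domains, presence in the other 3 lists differed between the classes. Of all 72 h restored domains, 60.7% overlapped a domain of the E2 list, 75.2% one of the 24 h list and 62.0% one of the 40 h list. For all 120 h domains the shares were 43.3%, 56.0% and 43.8%. Domains only at 72 h restored were found in the E2 list in 101 of 523 cases (19.3%, 16.0 to 23.0), in the 24 h list in 198 (37.9%, 33.7 to 42.2) and in the 40 h list in 67 (12.8%, 10.1 to 16.0). Domains only at 120 h were found in 284 of 2956 cases (9.61%, 8.57 to 10.7), 627 (21.2%, 19.7 to 22.7) and 237 (8.02%, 7.06 to 9.06). Shared domains of the 72 h restored list were found in 65.3%, 79.5% and 67.5%. The one-list domains are short, and short domains were found less often. Among domains under 1000 bp, 18.7% of those only at 72 h restored and 8.80% of those only at 120 h were in the E2 list, against 43.9% of shared domains at 72 h restored and 41.7% of shared domains at 120 h. This cut does not match widths. Of all domains only at 72 h restored, 40.7% were 250 bp or narrower, against 10.1% of shared domains at 72 h restored. The part of width in these shares was not tested.

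Domains of only 1 list were thus mostly absent from the E2 list and from the lists of shorter withdrawal. Of those only at 72 h restored, 285 of 523 (54.5%) were in none of the other 4 lists, and 102 (19.5%) were also in the 24 h list alone. In 25 cases (4.78%) the domain was listed in E2, at 24 h, at 40 h and at 72 h restored and missing at 120 h. Of those only at 120 h, 2180 of 2956 (73.7%) were in none of the other 4 lists. In 84 cases (2.84%) the domain was listed in E2, at 24 h and at 40 h, missing at 72 h restored and listed at 120 h.

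**Figure D4:**
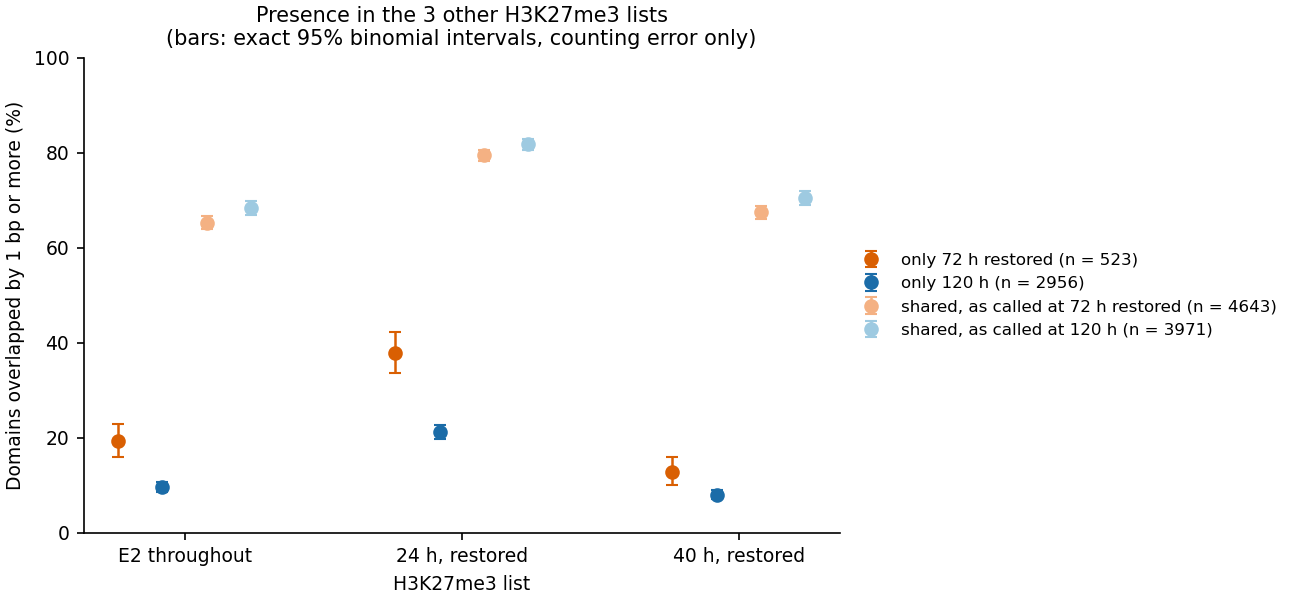
Share of domains of each class (vertical axis, %) that overlap a domain of the E2, 24 h or 40 h H3K27me3 list (horizontal axis); bars are exact 95% binomial intervals. Domains only at 72 h restored (19.3%, 37.9% and 12.8%) lie above those only at 120 h (9.61%, 21.2% and 8.02%) and below shared domains in all 3 lists.

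H3K27ac was then set against the classes, with its 6 lists taken to be on the same build. No value is given here for the build of the H3K27ac lists, and the overlaps of the 2 marks rest on it. In the cells' own state the marks rarely met. At 72 h restored, 10 of 5166 H3K27me3 domains (0.194%) overlapped an H3K27ac peak of the same condition, and at 120 h 195 of 6927 did (2.82%). The H3K27ac lists held 24930 peaks (8.22 Mb) at 72 h restored and 48710 peaks (21.5 Mb) at 120 h. Against the E2 H3K27ac list, the shares were 3.39% of all 72 h restored domains and 5.36% of all 120 h domains. At 24 h they were 1.72% and 3.38%, at 40 h 0.890% and 2.05%, and at 56 h, whose H3K27ac list held 6356 peaks, 0.0581% and 0.173%. H3K27ac of the opposite condition was found in 76 domains at 72 h restored (1.47%) and 52 domains at 120 h (0.751%).

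Few domains only at 72 h restored, which are short, overlapped H3K27ac in any condition. Of 523, 1 did in the E2 list, 1 in the 72 h restored list (0.191%, against 0.194% of all 72 h restored domains) and 3 in the 120 h list (0.574%, 0.118 to 1.67). Per length, H3K27ac covered less of their bases than of shared domains at 72 h restored in E2 (0.0697% against 1.14%), at 24 h, at 40 h and at 56 h. It did not at 72 h restored (0.0937% against 0.0224%) or at 120 h (0.546% against 0.420%). Domains only at 120 h carried more than those only at 72 h restored. Of 2956, 159 overlapped an E2 peak (5.38%, 4.59 to 6.25), 122 a 24 h peak (4.13%), 76 a 40 h peak (2.57%), 9 a 56 h peak (0.304%), 37 a 72 h restored peak (1.25%, 0.883 to 1.72) and 99 a 120 h peak (3.35%, 2.73 to 4.06). With each H3K27ac list limited to its 24930 widest peaks, the share at 120 h was 1.86%. Shared domains at 120 h, which are wider, had an E2 peak about as often (5.34%), a 72 h restored peak in 0.378% (0.212 to 0.622) and a 120 h peak in 2.42%. Measured per length, E2 H3K27ac covered 3.66% of the bases of domains only at 120 h and 1.14% of those of shared domains at 120 h. For H3K27ac at 72 h restored the shares were 0.512% and 0.0297%, and for H3K27ac at 120 h 1.62% and 0.417%. A somewhat larger share of domains only at 120 h had an H3K27ac peak within 5 kb, overlapping peaks included. At 72 h restored 7.58% of them did, against 5.46% of shared domains at 120 h, and at 120 h 13.3% did, against 10.9%. The median gaps to the nearest peak were close, at 45409 and 48018 bp for 72 h restored peaks and 30549 and 33571 bp for 120 h peaks.

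**Figure D5:**
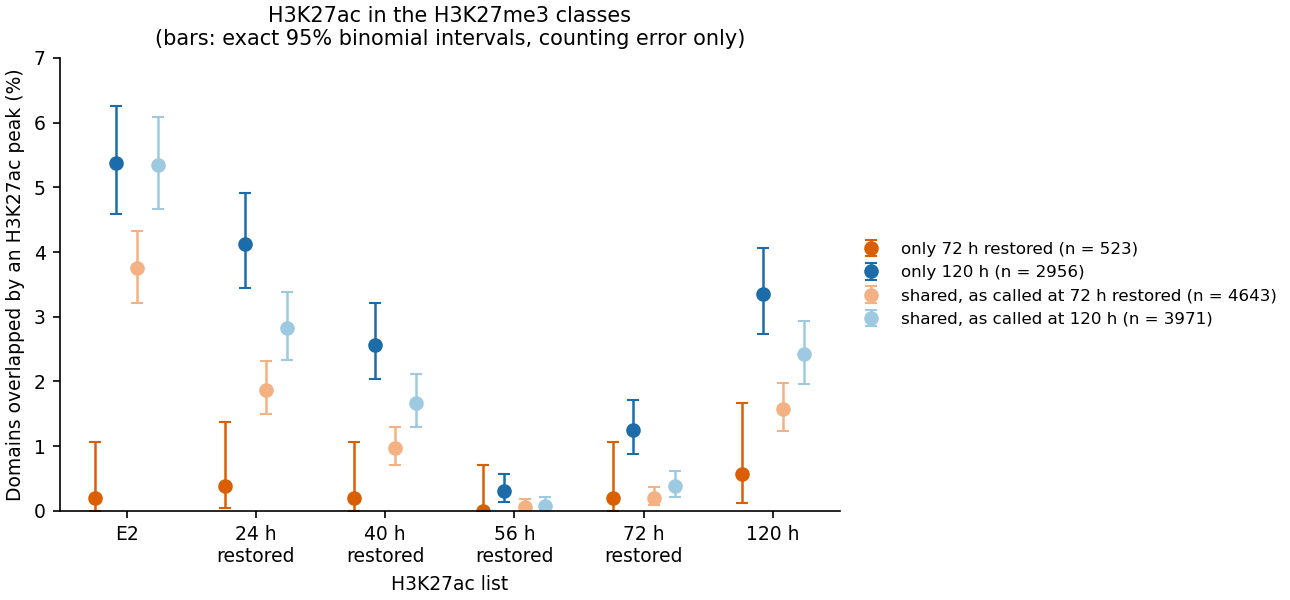
Share of H3K27me3 domains of each class (vertical axis, %) that overlap an H3K27ac peak in each of 6 conditions (horizontal axis); bars are exact 95% binomial intervals. Domains only at 120 h stand at 5.38% in E2, 0.304% at 56 h and 3.35% at 120 h, while those only at 72 h restored stay at or below 0.574%.

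The H3K27ac peaks that E2 cells carried inside domains only at 120 h were largely missing from the H3K27ac lists of 56 h and longer withdrawal. There were 217 such peaks. Of these, 60.8% (54.0 to 67.4) were found at 24 h, 41.5% (34.8 to 48.3) at 40 h, 1.84% at 56 h, 12.4% (8.36 to 17.6) at 72 h restored and 11.1% (7.22 to 16.0) at 120 h. Over all 27876 E2 peaks the shares were 74.6%, 62.8%, 10.1%, 48.5% and 63.6%. Low shares were not particular to domains only at 120 h. Of 352 E2 peaks in shared domains at 120 h, 46.6% were found at 24 h, 1.14% at 56 h, 4.83% (2.84 to 7.62) at 72 h restored and 16.2% (12.5 to 20.5) at 120 h. At the 217 sites the shares at 72 h restored and at 120 h had overlapping intervals. That H3K27me3 was listed there at 120 h and not at 72 h restored follows from how these domains were chosen.

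Some domains only at 120 h carried H3K27ac in the restored cells. In 15 of 2956 cases (0.507%, 0.284 to 0.836) H3K27ac was listed at 72 h restored and not at 120 h, in 22 in both and in 77 at 120 h and not at 72 h restored. The widest of those with H3K27ac at 72 h restored lay on chromosome 14, from 47501221 to 47504530 (3310 bp). It held 5 H3K27ac peaks with 1151 bp at 72 h restored and none at 120 h, with 2411 bp in E2, 2189 bp at 24 h and 1910 bp at 40 h, and the nearest 72 h restored H3K27me3 domain was 761547 bp away. A second such domain was found on chromosome 12 between 8777136 and 8780441 (3306 bp). It had 1591 bp of H3K27ac at 72 h restored and 214 bp at 120 h, with 2342, 2297 and 2172 bp in E2, at 24 h and at 40 h. On chromosome 5, from 148210961 to 148212987 (2027 bp), H3K27ac covered 312 bp at 72 h restored and 0 bp at 120 h, with 879, 1591 and 1533 bp in E2, at 24 h and at 40 h. None of the 6 widest had H3K27me3 in E2, at 24 h, at 40 h or at 72 h restored, which held for 2180 of all 2956 domains only at 120 h (73.7%). In 2 of these 6, on chromosomes 4 and 9, H3K27ac covered more at 120 h (624 and 456 bp) than at 72 h restored (249 and 195 bp), so both marks were listed over the same domain at 120 h.

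The reverse case was found in 3 of 523 domains only at 72 h restored (0.574%, 0.118 to 1.67), which carried H3K27ac at 120 h and not at 72 h restored. Of all 72 h restored domains, 1.47% overlapped a 120 h peak. The shares of the 2 cases cannot be set against each other. The H3K27ac lists held 24930 peaks at 72 h restored and 48710 at 120 h, and the domains differed in width. The 3 domains of the reverse case are described singly. These domains were 911 bp wide on chromosome 1 (39958779 to 39959689), 319 bp on chromosome 6 (85282389 to 85282707) and 286 bp on chromosome 12 (82865024 to 82865309). H3K27ac at 120 h covered 462, 319 and 286 bp of them and 0 bp at 72 h restored.

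The share of domains only at 72 h restored was higher on chromosome X than on any of the 19 autosomes. Covered length was lower at 72 h restored on all 20 chromosomes, with log2 ratios from -0.86 to -0.57. On the autosomes, 6.16% to 16.7% of the 72 h restored domains and 35.5% to 50.3% of the 120 h domains were in 1 list only. On chromosome X these shares were 32 of 77 (41.6%, 30.4 to 53.4) at 72 h restored and 49 of 92 (53.3%, 42.6 to 63.7) at 120 h. The 32 domains had a median width of 232 bp, and 3 of them overlapped the E2 list, 4 the 24 h list and 0 the 40 h list, for which the exact interval reaches 10.9% and 3 counts would be 9.38%. Chromosome X held few domains in any list: E2 had 41, the 24 h list 103, the 40 h list 40, the 72 h restored list 77 and the 120 h list 92. The 77 at 72 h restored were short, with a median of 409 bp against 903 bp over all chromosomes. Short domains were more often in 1 list, and the part of width in the share on X was not tested. In the 43 shared places on X the median log2 ratio was -0.39, against -0.44 on the autosomes.

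The same measures in neighbouring comparisons place these values. The 72 h restored domains were absent from the E2 list in 39.3% of cases and from the 40 h list in 38.0%, and the 120 h domains were absent from the E2 list in 56.7%. Of the E2, 24 h and 40 h domains, 10.8%, 22.1% and 6.61% were absent from the 120 h list. Of the joint length of the lists, 56.0% was common to 72 h restored and 120 h, 59.7% to 40 h and 72 h restored, 52.2% to E2 and 72 h restored, and 37.9% to E2 and 120 h. These comparisons share libraries and are given side by side only. For H3K27ac, 18.0% of 72 h restored peaks and 62.7% of 120 h peaks were in 1 list only, and for H3K4me3, the mark of active promoters, 8.63% and 22.0%. In shared H3K4me3 places the median log2 ratio of covered length was 0.01, against -0.44 for H3K27me3 and -0.41 for H3K27ac.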

How the data were processed

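The data were lists of H3K27me3 domains from 1 ChIP-seq library per condition. The deposited lists give chromosome, start and end coordinates of each domain and no score. Bowtie2 2.0, BWA and MACS2 2.0 and the builds mm9 and mm10 are named, per the submitters' processing notes. Which of them made each list, how inputs entered and at what threshold domains were called is not given in the sources used here. Domains were at least 146 bp wide in every H3K27me3 and H3K27ac list. The build was inferred: 16.9% of 72 h restored domains lay within 1 kb of a GRCm38.p6 gene end and 17.0% after a shift of 100 kb (120 h: 18.2% and 17.8%), against 74.8% and 14.5% for H3K4me3 of the E2 list, and on 6 chromosomes domains ended past the last gene.

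Chromosomes 1 to 19 and X were used. A domain was in 1 list only if no domain of the other overlapped it by 1 bp. Covered length was summed per shared place, and the log2 ratio needed no pseudocount. Analyses used Python 3.11.15 with scipy 1.17.1; overlaps were tested on simulated lists and against bedtools. Regions were named by rule: the 12 widest domains of each one-list class, the 6 shared places with the largest surplus and deficit, the 6 widest, the 4 intervals of 1 Mb with most domains of each one-list class, and the 6 widest one-list domains with H3K27ac in the opposite condition. Stretches joining such regions within 50 kb were chosen after their values were seen, as were the 4 groups of covered length and the split by presence in other lists. The members and lists were chosen with earlier results of these data known. H3K27ac was compared as the second mark taken to be on the same build. The V5 and AM lists were not used here. The alternatives were 50% overlap, a 5 kb tolerance, merging within 3 kb, domains above the median width, lists of equal number, autosomes alone and a 1.5-fold limit.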

Additional observations from a re-analysis of the deposited data

How the results depend on the processing

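With 1 library a side, no alternative measures replicate error. No paired analysis was possible because each condition had 1 library. The direction held under all settings tried: domains only at 72 h restored were fewer, and a smaller share of their list, than those only at 120 h, and the median width ratio stayed below 0. The counts depended on the setting. Main counts were 523 and 2956 domains (only at 72 h restored and only at 120 h). They were 241 and 1778 with a tolerance of 5 kb, 343 and 1638 with domains within 3 kb merged, 122 and 1201 for domains above the median width, and 882 (17.1%) and 1592 (30.8%) with the 5166 widest domains of each list. The median log2 width ratio of shared places was -0.41 with 1 domain in each list and -0.49 with equal numbers, against -0.44. Places past 1.5-fold numbered 1596 lower and 156 higher, and with equal numbers 24 were higher by 2-fold, against 88. The setting of equal numbers left out only the shortest 120 h domains and no 72 h restored domain. That by itself favours lower ratios in shared places. No setting equalized the covered length of the 2 lists.

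Presence in the E2, 24 h and 40 h lists was smaller when 50% of a domain had to be covered: 14.0%, 29.3% and 9.75% for domains only at 72 h restored, 5.21%, 14.5% and 3.76% for those only at 120 h, and 47.7%, 70.0% and 53.7% for shared domains at 72 h restored. With the other lists limited to their 3845 widest domains, the E2 and 24 h shares were 14.5% and 24.1% (only at 72 h restored), 7.68% and 14.6% (only at 120 h), and 60.9% and 72.5% (shared). With the 24930 widest H3K27ac peaks of each list, 1.86% of domains only at 120 h and 0.991% of shared domains at 72 h restored overlapped a 120 h peak. Of 53 values under other settings, 23 stayed within 1.5 times the main count or within the main interval. The lists carry no score, so a stricter calling threshold could not be applied.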

Other observations

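The 1 Mb intervals with most domains of 1 list were picked for those counts, so their shares are descriptions. The interval with most domains only at 120 h lay on chromosome 19, from 45000001 to 46000000, with 25 of them, which is 54.3% of its 120 h domains against 42.7% over all chromosomes. It held 28 domains with 87601 bp at 72 h restored and 46 domains with 138081 bp at 120 h, and 23 H3K27ac peaks at 72 h restored and 29 at 120 h, against 51 in E2. The next lay on chromosome 17, from 35000001 to 36000000, with 22 domains only at 120 h (64.7%). Its covered length was 31574 bp at 72 h restored and 76834 bp at 120 h, and 16247, 30036 and 21307 bp in E2, at 24 h and at 40 h. It includes the place on chromosome 17 with 456 bp at 72 h restored and 8030 bp at 120 h. On chromosome 19, from 4000001 to 5000000, 19 domains were only at 120 h (52.8%), and on chromosome 9, from 44000001 to 45000000, 16 were (53.3%).

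The interval with most domains only at 72 h restored lay on chromosome 15, from 102000001 to 103000000, with 6, which is 10.5% of its 72 h restored domains against 10.1% over all chromosomes. It was densely marked in both conditions, with 57 domains and 155023 bp at 72 h restored and 56 domains and 184516 bp at 120 h, and it contains the widest shared place.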
